A study of Mus musculus with 8 samples.

Results

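The comparison set satellite cells cultured towards differentiation under an siRNA against LncMyod beside satellite cells taken from injured muscle. It used 4 of the series' 8 libraries, chosen by their labels: 2 named LncMyod Knockdown, called LncMyod siRNA below, and 2 named ASC. All cells came from hindlimb skeletal muscle of C57BL/6 mice. The ASC cells had been isolated 2.5 days after injury and carry the label treatment none. The LncMyod siRNA cells had been grown in F10 medium with horse serum and antibiotics. The protocol text gives the final 48 h for an siRNA against LncMyod, in the same words for every sample of the series, and it is read here as describing these cultures. The remaining 4 libraries, 2 of cultures with a control siRNA (whose time is not stated apart from that text) and 2 of freshly isolated cells (QSC), were used to describe the regions and to estimate the spread of values. No label states which animal or culture a replicate came from. A p-value below therefore measures the spread between libraries only, and that spread may be technical. Injury, culture, differentiation and siRNA all differ between the 2 groups, and their parts in any difference cannot be told apart. The 2 LncMyod siRNA libraries were less alike than the 2 ASC libraries, and values are given for each. An assay of open chromatin does not measure how far LncMyod itself had been depleted.

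Satellite cells are the stem cells of skeletal muscle. After injury they leave quiescence and proliferate under MyoD and Myf5, and in differentiation medium they leave the cell cycle, switch on myogenin and then the sarcomere genes, and fuse. LncMyod is a long noncoding RNA from the neighbourhood of Myod1, known for a part in myoblast differentiation through binding of Igf2bp2. MyoD and myogenin bind E-boxes, written CANNTG, among which CAGCTG is a preferred form. ATAC-seq marks accessible DNA by the cuts of a transposase, and each library is given here as a list of broad peaks.

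Sequences upstream of gene starts are shown as examples from the differing peaks. The starts of 4 muscle genes lay in regions that opened in LncMyod siRNA, and 1 start lay in a region found only in ASC. Windows of Lcn9, Cpne4, Rbfox1 and Cnn1, and another of Tnni1, were also covered and are not shown. Few differing regions are of this kind: a start lay within 1 kb of 3.39% of those found only in LncMyod siRNA and 6.12% of those found only in ASC. A region was a stretch of peaks merged over all 8 libraries, and a library held it if at least 1 bp of its peaks fell there. Each line holds the 250 bases before a RefSeq transcript start on GRCm38.p6, read in the direction of transcription. Capitals mark matches to the E-box CANNTG, to the AP-1 motif TGANTCA, to the Runx motif TGTGGT and to the Tead motif CATTCC on either strand.
Acta1: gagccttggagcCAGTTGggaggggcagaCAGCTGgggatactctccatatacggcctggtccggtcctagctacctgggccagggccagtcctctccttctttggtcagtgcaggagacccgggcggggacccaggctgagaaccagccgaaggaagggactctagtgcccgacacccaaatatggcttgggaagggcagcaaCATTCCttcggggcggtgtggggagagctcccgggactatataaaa
Csrp3: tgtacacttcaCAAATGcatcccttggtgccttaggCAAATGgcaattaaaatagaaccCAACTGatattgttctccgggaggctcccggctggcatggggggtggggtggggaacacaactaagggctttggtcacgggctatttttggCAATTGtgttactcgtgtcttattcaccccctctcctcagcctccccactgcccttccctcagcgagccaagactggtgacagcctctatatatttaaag
Tnni1: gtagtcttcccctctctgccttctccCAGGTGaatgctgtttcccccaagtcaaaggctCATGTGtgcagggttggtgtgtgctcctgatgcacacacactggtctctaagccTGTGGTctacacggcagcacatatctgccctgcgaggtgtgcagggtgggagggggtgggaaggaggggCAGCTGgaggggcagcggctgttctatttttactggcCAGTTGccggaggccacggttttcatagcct
Actc1: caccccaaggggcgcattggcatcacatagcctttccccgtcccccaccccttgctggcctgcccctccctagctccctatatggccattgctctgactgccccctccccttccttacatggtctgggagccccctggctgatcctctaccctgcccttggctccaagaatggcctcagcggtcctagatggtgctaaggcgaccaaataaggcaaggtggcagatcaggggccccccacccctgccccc
Capn6: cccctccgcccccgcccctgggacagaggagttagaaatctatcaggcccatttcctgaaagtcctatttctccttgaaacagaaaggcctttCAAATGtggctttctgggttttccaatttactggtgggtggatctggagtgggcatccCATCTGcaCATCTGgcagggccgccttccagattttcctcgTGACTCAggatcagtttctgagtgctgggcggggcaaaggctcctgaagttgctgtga
The Acta1 window, chr8:123894776-123895025 on the minus strand, held 2 E-boxes, of which 1 was CAGCTG, and 1 Tead motif. The Csrp3 window (chr7:48848052-48848301, minus strand) held 4 E-boxes, none of them CAGCTG. The Tnni1 window (chr1:135799171-135799420, plus strand) held 4 E-boxes, of which 1 was CAGCTG, and 1 Runx motif. The Actc1 window (chr2:114052876-114053125, minus strand) held none of the motifs marked. Capn6, whose window is chrX:143827413-143827662 on the minus strand, had the 1 AP-1 motif of the set, with 3 E-boxes. The regions over the 4 muscle gene starts were each held by both control siRNA libraries and by no QSC library. The region over Capn6 was held by both QSC libraries and no control siRNA library. A motif match is a string in the sequence, not a measured site.

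Counted over the 300 bases from 250 before to 50 after a start, CAGCTG on either strand (the motif is its own reverse complement and a subset of CANNTG) stood in 33.5% of the 251 windows whose start lay in a LncMyod siRNA-specific region. It stood in 12.3% of the 138 windows with the start in an ASC-specific region, in 16.2% of the 14745 in a region of all 4 libraries, and in 16.3% of all 32817 windows. Split by the control siRNA libraries, the share was 40.7% of 162 windows where both held the region, 17.2% of 29 where 1 did and 21.7% of 60 where neither did. CANNTG stood in 88.8%, 79.0%, 62.8% and 72.3% of the LncMyod siRNA-specific, ASC-specific, shared and all windows. For TGANTCA the same shares were 8.76%, 11.6%, 5.33% and 7.81%, for TGTGGT 25.1%, 23.2%, 11.8% and 16.8%, and for CATTCC 18.7%, 21.0%, 11.8% and 14.7%. CCGCCC, the GC box, went the other way, at 12.4%, 47.1%, 65.7% and 35.6%. Median GC content was 52.0% and 54.2% in the specific classes, 62.0% in the shared and 52.7% in all windows, and its part in the motif shares was not tested.

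Far more regions were found only in the LncMyod siRNA cultures than only in ASC. Of 141301 merged regions, 12767 (9.04%) were held by both LncMyod siRNA libraries and neither ASC library, and 2923 (2.07%) by both ASC and neither LncMyod siRNA library. A further 43825 were held by all 4. With 2 libraries against 2 no exact test can give a p under 0.333, so these are counts without a p. They move with the length of the lists: ASC held 70341 and 59666 peaks, LncMyod siRNA 95449 and 79396. With the 50000 strongest peaks of every library the counts were 7096 and 6293, and most of the excess was gone. The lists carry no read counts, so sequencing depth is unknown, and the absence of a peak does not mean that chromatin was closed. In a bulk library, fewer cells with an open region and less opening per cell cannot be told apart.

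Most of what opened in the LncMyod siRNA cultures was also open in the control siRNA cultures. Both control siRNA libraries held 9400 (73.6%) of the LncMyod siRNA-specific regions, 1 held 1389, and neither held 1978 (15.5%). QSC held few of them: 9645 (75.5%) were in neither QSC library and 1976 (15.5%) in both. Of the ASC-specific regions, 2222 (76.0%) were in neither control siRNA library, and 1069 (36.6%) were in both QSC libraries. The part of the ASC-specific set that was absent from both control siRNA libraries and present in both QSC libraries came to 779 regions (26.7%), and 1210 (41.4%) were in none of these 4. Of all 120218 regions held by any LncMyod siRNA or ASC library, both control siRNA libraries held 58.1% and neither held 31.4%. Both QSC libraries held 42.2% of those 120218 and neither held 50.4%. The 120218 include the 43825 regions of all 4 libraries, which no specific class can hold. Of those 43825, both QSC libraries held 82.0% and both control siRNA libraries 96.8%, so the shares of the 120218 are not a like baseline. Between the specific classes, both QSC libraries held 36.6% of the ASC-specific and 15.5% of the LncMyod siRNA-specific regions. Absence from control siRNA with presence in both QSC libraries made up 3.42% of the 120218. Absence from all control siRNA and QSC libraries made up 26.3%. Both cultures are set against the same 2 ASC libraries here, so the direct contrast between them is given further down.

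**Figure D1:**
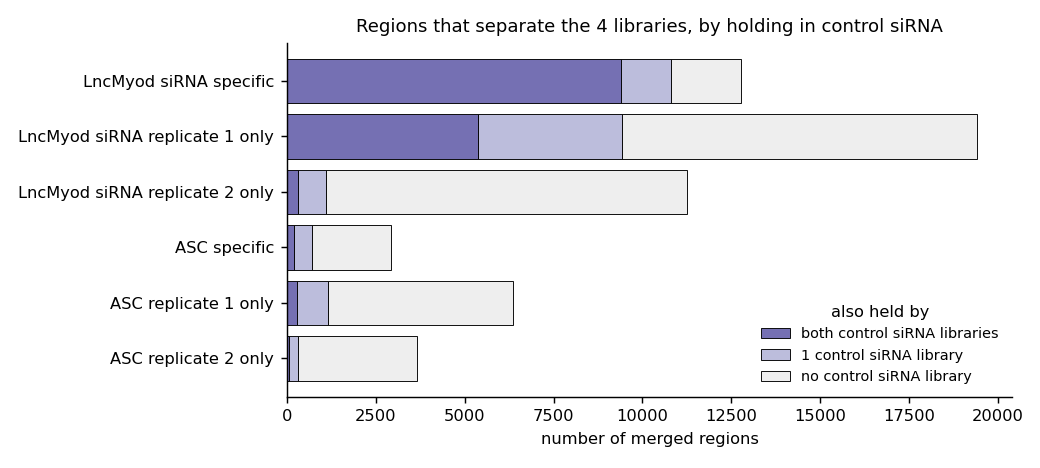
Number of merged regions (x axis) that separate the LncMyod siRNA from the ASC libraries, with bar segments for the number of control siRNA libraries that also held them. Both control siRNA libraries held 73.6% of the LncMyod siRNA-specific regions, 27.7% of those of LncMyod siRNA replicate 1 alone and 2.77% of those of replicate 2 alone. They held 58.1% of all regions found in any LncMyod siRNA or ASC library, which include the regions of all 4 (96.8% held).

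The LncMyod siRNA libraries differed from each other. Replicate 1 alone among the 4 held 19421 regions and replicate 2 alone 11246, and both control siRNA libraries held 27.7% of the former and 2.77% of the latter. Overlap was measured by the Jaccard index, which divides the length that both libraries cover by the length that at least 1 covers. It was 0.523 between the LncMyod siRNA replicates and 0.592 between the ASC replicates. Against the control siRNA libraries it was 0.63 and 0.625 for replicate 1 and 0.559 and 0.561 for replicate 2, all above the value between the LncMyod siRNA replicates. Of the 16573 regions held by both control siRNA and neither ASC library, LncMyod siRNA replicate 1 held 14784 (89.2%) and replicate 2 held 9711 (58.6%). Replicate 2 thus lacked a larger part of the regions that opened in control culture. Replicate 2 covered 49.7 Mb against 64.0 Mb, and the part of list length in this difference was not tested.

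The specific regions were narrower and weaker than shared ones and lay away from gene starts. Part of this is built in, as a region missing from 2 libraries tends to hold weak peaks. Merging also widens regions that more libraries hold. How much of the differences comes from these steps was not tested. Their median width was 602 bp in the LncMyod siRNA-specific and 581 bp in the ASC-specific set, against 1080 bp for regions of all 4 libraries. A start lay within 1 kb of 3.39% and 6.12% of them, and of 27.3% of the shared regions. The authors' −log10 q for the strongest peak of a region had a median of 5.48 and 3.27 in the 2 LncMyod siRNA libraries at LncMyod siRNA-specific regions, against 17.5 and 10.2 at shared regions. At ASC-specific regions the ASC libraries had 4.02 and 2.87, against 12.6 and 8.44. Across chromosomes the LncMyod siRNA-specific share of regions held by any of the 4 libraries ran from 8.02% on X to 12.5% on chromosome 14, leaving out Y, where 0 of 18 regions were of this class.

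The strongest regions of each set, ranked by the lower of their replicate −log10 q values, are given with the gene they lie in. The leading LncMyod siRNA-specific region was chr4:64699861-64700521, in no gene, with a fold over local background, as the authors' peak caller gave it, of 10.9 and 10.3. The next, chr10:88078089-88078784, lay in the long noncoding RNA gene Gm30233, 12288 bp from the start of Pmch, with folds of 9.62 and 8.78. Of the 6 leading LncMyod siRNA-specific regions 4 lay in no gene, and all 6 were held by both control siRNA libraries. The leading ASC-specific region, chr6:38315952-38316438, lay in Zc3hav1, an antiviral RNA-binding protein, with folds of 7.99 and 7.34. Others lay in Plod2, a collagen lysyl hydroxylase (chr9:92596823-92597404, 7.83 and 6.47), Arhgap44, a GTPase-activating protein (chr11:65128532-65129338, 5.69 and 6.43), and Cubn, an uptake receptor (chr2:13480738-13481178, 7.65 and 6.37). Both QSC libraries held those in Zc3hav1, Plod2 and Arhgap44, and neither held that in Cubn.

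Clusters of specific regions fell in long genes. The loci with most LncMyod siRNA-specific regions (a locus being the gene body with 10 kb on either side) were those of Cdh13, a GPI-anchored cadherin, with 18, Sorcs2, a sortilin-family receptor, with 17, and Rbfox1, a splicing factor of muscle and neurons, with 14. Mad1l1, a spindle checkpoint protein, had 13, Trio, a guanine nucleotide exchange factor, 12, and Camta1, a transcription activator, 11. ASC-specific regions were most numerous at Sox5, Camta1 and Auts2, with 6 each, and at Ano6, a phospholipid scramblase, Atrnl1 and Ltbp1, a binding protein of latent TGF-beta, with 5 each. Gene length favours such counts, and they were not set against it.

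For every gene the covered length of its locus, scaled for how much each library covers in all, was compared as log2(bp + 500), so that changes at loci with little coverage are understated. limma fitted the 4 group means on all 8 libraries, and "rose" and "fell" mean an adjusted p (Benjamini-Hochberg) under 0.05. Of 27938 loci tested, 814 (2.91%) rose in LncMyod siRNA against ASC and 648 (2.32%) fell. The median change over all loci was -0.10, and without scaling it was 0.10 with 869 that rose and 109 that fell, so the split into higher and lower calls, 55.7% higher as reported and 88.9% without scaling, depends on that step. Leaving out a library lost calls in every case. The counts were 46 and 9 without ASC replicate 2, 412 and 169 without ASC replicate 1, 527 and 361 without LncMyod siRNA replicate 1, and 243 and 48 without LncMyod siRNA replicate 2, and the fit on the 4 libraries alone called 0 of either (limma, 4896 at an unadjusted p under 0.05).

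The loci that rose had little coverage in ASC and were nearly as covered in control siRNA. Their median covered length was 1.65 kb in LncMyod siRNA, 1.24 kb in control siRNA, 0.158 kb in ASC and 0.572 kb in QSC, and 343 of them were listed at 0 in both ASC libraries. A LncMyod siRNA-specific region lay in 702 (86.2%) of them and in 31.6% of all loci tested. Loci that fell had 1.6 kb in LncMyod siRNA, 1.79 kb in control siRNA, 3.33 kb in ASC and 2.62 kb in QSC, and an ASC-specific region lay in 319 (49.2%) of them against 10.0% of all. The calls and the specific regions come from the same peaks, so an excess over all loci is built in for both directions. The peaks under the loci that rose were weak: 48.8% and 58.7% of those in the LncMyod siRNA libraries had a fold under 3, where these libraries had 36.4% and 39.7% of all their peaks under 3. With peaks of a fold under 3 left out of every library, a setting chosen after the data were seen, 568 loci rose and 413 fell, of which 233 and 125 were among those called with all peaks.

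**Figure D2:**
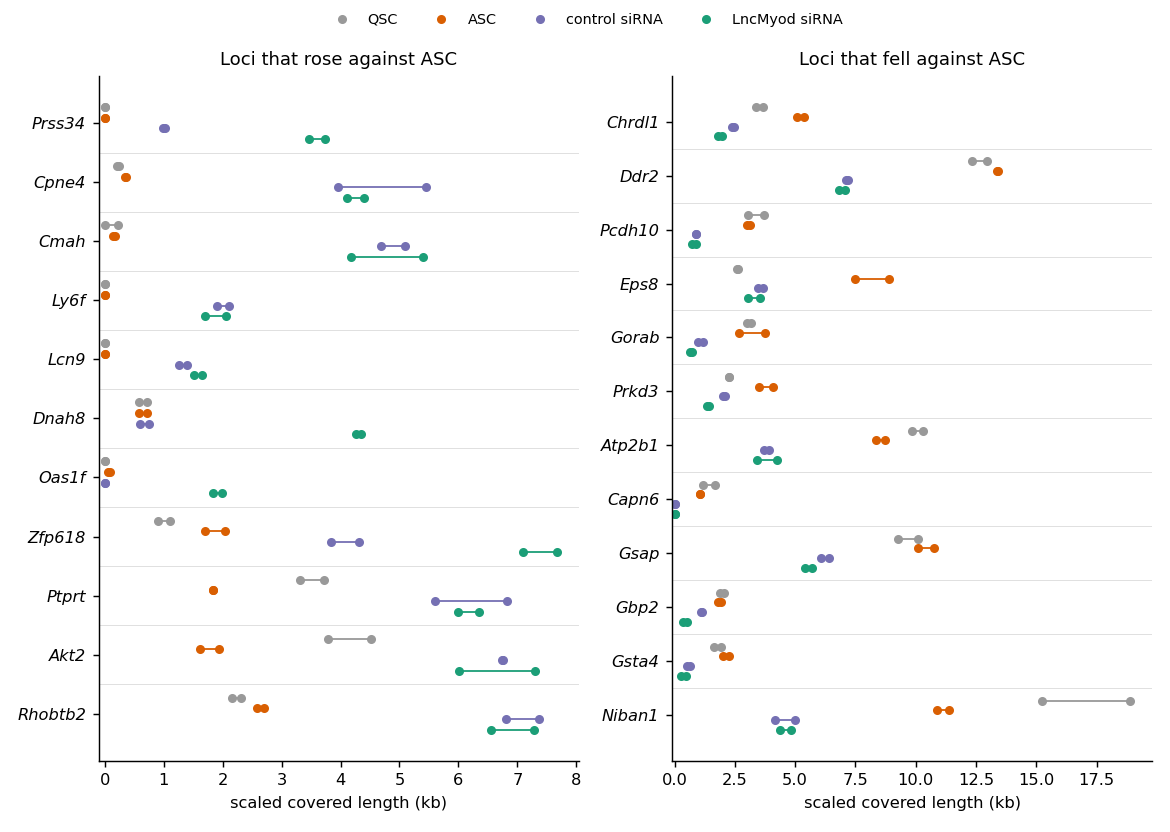
Scaled covered length (kb, x axis) of loci with the smallest p in each direction, 1 point per library joined within a group of 2. In the loci drawn that rose, both control siRNA libraries also lay above both ASC libraries, except at Dnah8 and Oas1f. In all 12 loci that fell, both lay below.

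Among the 12 protein-coding loci with the smallest p that rose, Prss34, Ly6f and Lcn9 were listed at 0 in both ASC libraries, so no fold is given for them. Prss34 (chr17:25298394-25300168), a serine protease of mast cells and basophils, had 0 kb in QSC and ASC, 0.983 and 1.02 kb in control siRNA, against 3.73 and 3.46 kb in LncMyod siRNA (limma, adjusted p 0.00247). Ly6f, of the Ly6 surface protein family, had 2.12 and 1.91 kb in control siRNA, against 1.71 and 2.05 kb in LncMyod siRNA (limma, adjusted p 0.00532). Lcn9, a lipocalin, had 1.40 and 1.26 kb in control siRNA, against 1.66 and 1.52 kb in LncMyod siRNA (limma, adjusted p 0.00627). Every cultured library had coverage at these loci and no ASC or QSC library did, and at Prss34 and Lcn9 the LncMyod siRNA libraries were the highest.

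Large changes were also seen where ASC held some coverage. Cpne4 (chr9:104566701-105034544), a calcium-dependent phospholipid-binding copine, had 0.342 and 0.356 kb in ASC, 3.96 and 5.45 kb in control siRNA, against 4.10 and 4.40 kb in LncMyod siRNA. Its log2 change was 2.48 (SE 0.17, limma adjusted p 0.00532), and it carried 9 LncMyod siRNA-specific regions. Cmah, which makes N-glycolylneuraminic acid, had 0.18 and 0.138 kb in ASC and 5.40 and 4.18 kb in LncMyod siRNA, a log2 change of 3.00 (SE 0.22). All cultured libraries were high at both loci and the ASC and QSC libraries were low. Akt2, the kinase of insulin signalling in muscle, had 1.94 and 1.62 kb in ASC and 7.29 and 6.01 kb in LncMyod siRNA, with 6.75 and 6.74 kb in control siRNA and a log2 change of 1.65 (SE 0.14). Zfp618, a zinc finger gene, Ptprt, a receptor tyrosine phosphatase, and Rhobtb2, an atypical GTPase, rose by 1.74, 1.51 and 1.24. Groups did not overlap at any of these loci, which the rule for naming them required.

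Dnah8, an axonemal dynein heavy chain, and Oas1f, of the oligoadenylate synthetase family, were low in control siRNA. Dnah8 had 0.711 and 0.576 kb in ASC, 0.759 and 0.6 kb in control siRNA, against 4.26 and 4.34 kb in LncMyod siRNA. Its LncMyod siRNA peaks were 8 and 7 in number, of which 6 and 5 had a fold under 3, and just 1 LncMyod siRNA-specific region was among them. Oas1f had 0.093 and 0.058 kb in ASC and 1.84 and 1.99 kb in LncMyod siRNA, in 3 and 2 peaks, all with a fold under 3. With weak peaks left out, Dnah8 had an adjusted p of 0.106 (limma) and Oas1f was not covered enough to be tested. Prss34, Cpne4, Cmah, Lcn9, Ptprt and Akt2 were still past the threshold under that setting.

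The loci that fell were also low in control siRNA, and Chrdl1 and Ddr2 had the smallest p. Chrdl1 (chrX:143285674-143394263), a secreted BMP antagonist, had 5.07 and 5.36 kb in ASC, 2.39 and 2.47 kb in control siRNA, against 1.99 and 1.82 kb in LncMyod siRNA, a log2 change of -1.25 (SE 0.11, limma adjusted p 0.0108). Ddr2 (chr1:169972307-170110836), a receptor tyrosine kinase for collagen, had 13.4 and 13.4 kb in ASC and 6.83 and 7.08 kb in LncMyod siRNA, a change of -0.90 (SE 0.08). Every cultured library was below every ASC library at both. Eps8, an adaptor that caps actin filaments, had 7.49 and 8.89 kb in ASC, 3.03 and 3.54 kb in LncMyod siRNA and 2.61 and 2.60 kb in QSC. ASC was the highest group there, and QSC lay below both LncMyod siRNA libraries. Niban1, a stress-induced regulator of translation, had 15.2 and 18.9 kb in QSC, 11.4 and 10.9 kb in ASC and 4.37 and 4.83 kb in LncMyod siRNA.

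Capn6 (chrX:143802236-143827412), a calpain without the usual protease activity, was listed at 0 in all 4 cultured libraries, with 1.05 and 1.07 kb in ASC and 1.69 and 1.20 kb in QSC (limma, adjusted p 0.0137). Its ASC-specific region covers the start shown above. Pcdh10, a protocadherin, Gorab, a golgin, Prkd3, a protein kinase D, and Atp2b1, a plasma membrane calcium pump, fell by 1.45, 1.63, 1.18 and 1.06. Gsap, the gamma-secretase activating protein, Gbp2, an interferon-induced GTPase, and Gsta4, a glutathione S-transferase, fell by 0.85, 1.33 and 1.61. With the gene body only, without flanks, Gbp2 and Gsta4 changed by -0.11 and -0.40 (limma, adjusted p 0.555 and 0.425). The other 10 of the 12 still passed under that setting. The control siRNA libraries were below ASC at all 12. Without ASC replicate 2 only Gorab stayed past the threshold among them (limma, adjusted p 0.044). The others then had an adjusted p between 0.0525 (Prkd3) and 0.0574 (Niban1) with little change in size, such as -1.22 for Chrdl1 and -0.90 for Ddr2. Without scaling 8 of the 12 passed.

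Genes of the contractile apparatus had more covered length in LncMyod siRNA than in ASC. Of 55 genes of the thin filament, thick filament and Z-disc, all tested, 9 (16.4%) rose and 0 fell, against 2.91% and 2.32% of all loci. The median change was 0.26 against -0.10 over all loci, and 43 of the 55 were above 0, where 11147 of all 27938 loci were. Summed over the 55 loci the covered length was 162.5 and 162.1 kb in ASC, 219.1 and 190.5 kb in LncMyod siRNA, 240.8 and 237.3 kb in control siRNA and 146.6 and 145.6 kb in QSC. LncMyod siRNA stood above ASC and below control siRNA in both libraries. Of the peaks at these loci, 56.1% and 51.3% in LncMyod siRNA, 30.8% and 52.8% in ASC and 35.8% and 40.9% in control siRNA had a fold under 3. With those peaks left out of all libraries, 1 of 53 rose (Csrp3), 1 fell (Tnnc1), and the median was 0.03. Without ASC replicate 2, 0 passed and the median was 0.35.

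**Figure D3:**
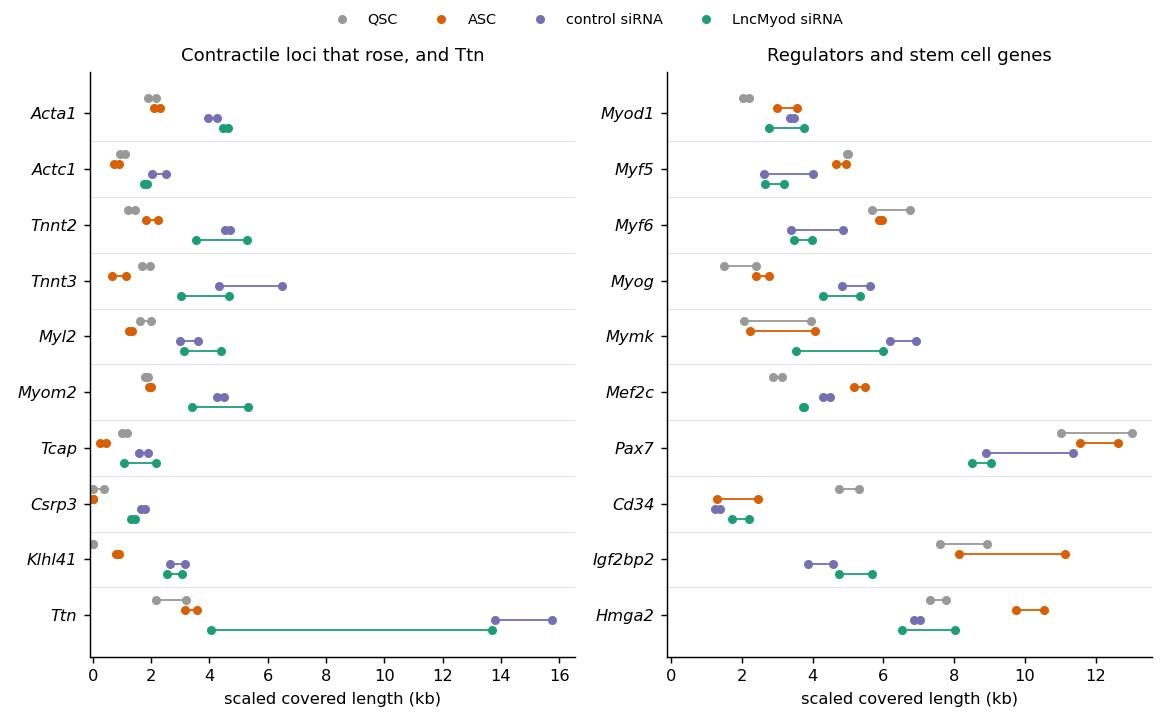
Scaled covered length (kb, x axis) of the 9 contractile loci that rose and of Ttn (left) and of muscle regulators and stem cell genes (right), 1 point per library joined within a group of 2. The LncMyod siRNA replicates lie far apart at Ttn, at 13.7 and 4.05 kb.

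Csrp3 (chr7:48830398-48848051), a LIM protein of the Z-disc, was listed at 0 in both ASC libraries. It had 1.79 and 1.64 kb in control siRNA, against 1.32 and 1.45 kb in LncMyod siRNA. Its 3 LncMyod siRNA-specific regions are specific against ASC only, and each control siRNA library also had 3 peaks at the locus. Of its 6 LncMyod siRNA peaks 5 had a fold of at least 3, and the rise against ASC had an adjusted p of 0.019 (limma). Klhl41, which stabilises nebulin, had 0.917 and 0.783 kb in ASC, 3.16 and 2.64 kb in control siRNA, against 3.08 and 2.54 kb in LncMyod siRNA, a log2 change of 1.29 (SE 0.16, limma adjusted p 0.0163). Every cultured library was above every ASC library at both. Acta1 (chr8:123891758-123894775), skeletal alpha-actin, had 2.11 and 2.304 kb in ASC, 4.28 and 3.94 kb in control siRNA, against 4.47 and 4.65 kb in LncMyod siRNA. Its log2 change was 0.90 (SE 0.12, limma adjusted p 0.0168), and with weak peaks left out it was -0.06. Actc1, cardiac alpha-actin, which embryonic and regenerating muscle also makes, had 0.717 and 0.899 kb in ASC and 1.77 and 1.86 kb in LncMyod siRNA.

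The troponin T genes Tnnt3, of fast fibres, and Tnnt2, of heart and immature muscle, rose by 1.63 (SE 0.27) and 0.93 (SE 0.19). Tnnt3 had 1.14 and 0.662 kb in ASC and 4.68 and 3.04 kb in LncMyod siRNA, and it turned to -1.10 without weak peaks. Myl2, the slow and ventricular regulatory light chain, rose by 1.23 (SE 0.18), Myom2, the M-band protein myomesin-2, by 0.96 (SE 0.19), and the titin-cap gene Tcap also rose. Neb, nebulin, had 1.92 and 2.34 kb in ASC and 4.61 and 2.76 kb in LncMyod siRNA (limma, adjusted p 0.132). At Tnni1, slow troponin I, ASC had 4.91 and 3.38 kb and LncMyod siRNA 5.92 and 5.72 kb (limma, adjusted p 0.26). Neither passed. The groups did not overlap at either, but with 2 libraries against 2 that alone gives no p under 0.333 (exact test, two-sided).

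Titin separated the LncMyod siRNA replicates. Ttn (chr2:76703980-76982557), the gene of the giant sarcomere spring, had 3.57 and 3.16 kb in ASC, 15.8 and 13.8 kb in control siRNA, against 13.7 and 4.05 kb in LncMyod siRNA replicates 1 and 2. Replicate 1 was at the control siRNA level and replicate 2 near ASC, and the locus did not pass (log2 change 1.06, SE 0.47, limma adjusted p 0.213). The number of peaks was 5 and 4 in ASC, 22 and 23 in control siRNA, and 31 and 4 in LncMyod siRNA. Of the 31 peaks of replicate 1, 30 had a fold under 3, as had 19 of 22 and 20 of 23 in control siRNA. The titin locus was named for its role whatever its values.

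Other groups of the muscle programme had few calls, where 2.91% of all loci rose and 2.32% fell. Of 21 genes of excitation-contraction coupling 0 passed, with a median of -0.01. Trdn, triadin, had 0.965 and 0.018 kb in ASC and 3.04 and 1.79 kb in LncMyod siRNA, with an adjusted p of 0.0754 (limma). Of 24 genes of fusion and the cell surface 1 rose: Dysf (chr6:84008361-84211060), the membrane repair protein dysferlin. It had 7.86 and 8.08 kb in ASC, 15.7 and 18.1 kb in control siRNA, against 16.7 and 13.8 kb in LncMyod siRNA, a log2 change of 0.89 (SE 0.12, limma adjusted p 0.0181), and it held 8 LncMyod siRNA-specific regions. All 4 cultured libraries were above both ASC libraries, and with weak peaks left out the change was 1.11 (limma, adjusted p 0.00887). The call was lost without scaling (limma, adjusted p 0.0506) and without either ASC library (0.0539 and 0.0653). Of 16 neuromuscular junction genes 1 rose, Colq, the collagen tail of acetylcholinesterase, from 1.37 and 1.99 kb in ASC to 4.79 and 4.25 kb in LncMyod siRNA (log2 change 1.22, SE 0.17).

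Of 24 myogenic transcription factors and their regulators 0 rose and 0 fell, against 2.91% and 2.32% of all loci, with a median of -0.14. Myod1 (chr7:46376474-46379092), the gene near LncMyod, had 3.57 and 3.01 kb in ASC, 2.78 and 3.75 kb in LncMyod siRNA, 3.37 and 3.47 kb in control siRNA and 2.03 and 2.21 kb in QSC. The groups overlapped, with a log2 change of -0.02 (SE 0.16). Myog, myogenin, the factor of terminal differentiation, had 2.39 and 2.76 kb in ASC, 5.63 and 4.84 kb in control siRNA, against 5.33 and 4.30 kb in LncMyod siRNA. Its groups did not overlap, but its adjusted p was 0.072 (limma), with weak peaks left out the change was -1.12, and with 50 kb flanks it passed (0.80, limma adjusted p 0.0116). Myf5 and Myf6, neighbours that share peaks, had changes of -0.63 and -0.60 (limma, adjusted p 0.0922 and 0.0906), and of 2.08 and 1.06 with weak peaks left out. Mef2c, a partner of the myogenic factors, had 5.49 and 5.16 kb in ASC and 3.73 and 3.76 kb in LncMyod siRNA (limma, adjusted p 0.0529). Mymk, the fusion protein myomaker, overlapped between the groups.

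Igf2bp2 (chr16:22059009-22163299), the RNA-binding partner of LncMyod, fell. It had 8.13 and 11.1 kb in ASC, 4.73 and 5.69 kb in LncMyod siRNA, 4.58 and 3.87 kb in control siRNA and 7.59 and 8.92 kb in QSC. The cultured libraries were below the others without overlap, and the log2 change was -0.82 (SE 0.18, limma adjusted p 0.0491). The call held under 5 of the 17 alternative settings, and the change was -0.91 with an adjusted p of 0.0916 (limma) without weak peaks. Hmga2, a chromatin protein that activates Igf2bp2 in proliferating myoblasts, had 9.73 and 10.5 kb in ASC and 6.51 and 8.02 kb in LncMyod siRNA (limma, adjusted p 0.0725).

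Stem cell, injury-response and cell cycle genes had lower medians than all loci, with single calls, where 2.91% of all loci rose and 2.32% fell. Other lists also had medians below the -0.10 of all loci, among them neuromuscular junction (-0.20), chondrogenic and osteogenic (-0.19) and Notch genes (-0.16). Some lists lay above it, such as fusion and cell surface (0.05). Of 32 quiescence genes 1 fell, Dll1, a Notch ligand, from 3.59 and 4.41 kb in ASC to 2.45 and 2.31 kb (log2 change -0.64, SE 0.13). Pax7, the satellite cell transcription factor, had 12.6 and 11.5 kb in ASC and 8.49 and 9.03 kb in LncMyod siRNA without overlap, and did not pass (limma, adjusted p 0.115). Cd34, Calcr and Spry1, all more covered in QSC than in LncMyod siRNA, had changes of 0.08, -0.11 and -0.28 and did not pass. Of 29 AP-1 and immediate early genes 1 fell, Fosb, from 5.50 and 6.87 kb in ASC to 3.00 and 3.04 kb (log2 change -0.92, SE 0.13, limma adjusted p 0.0186). The list's median was -0.28 and 4 of 29 were above 0, where 11147 of all 27938 loci were. Of 34 cell cycle genes 1 fell, Ccnd2, cyclin D2, by 0.89, 1 rose, Ccne1, cyclin E1, by 0.76, and 3 were above 0, with a median of -0.24. Without scaling the medians of the quiescence, the AP-1 and immediate early and the cell cycle lists were 0.06, -0.03 and -0.02, where that of all loci was 0.10.

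**Figure D4:**
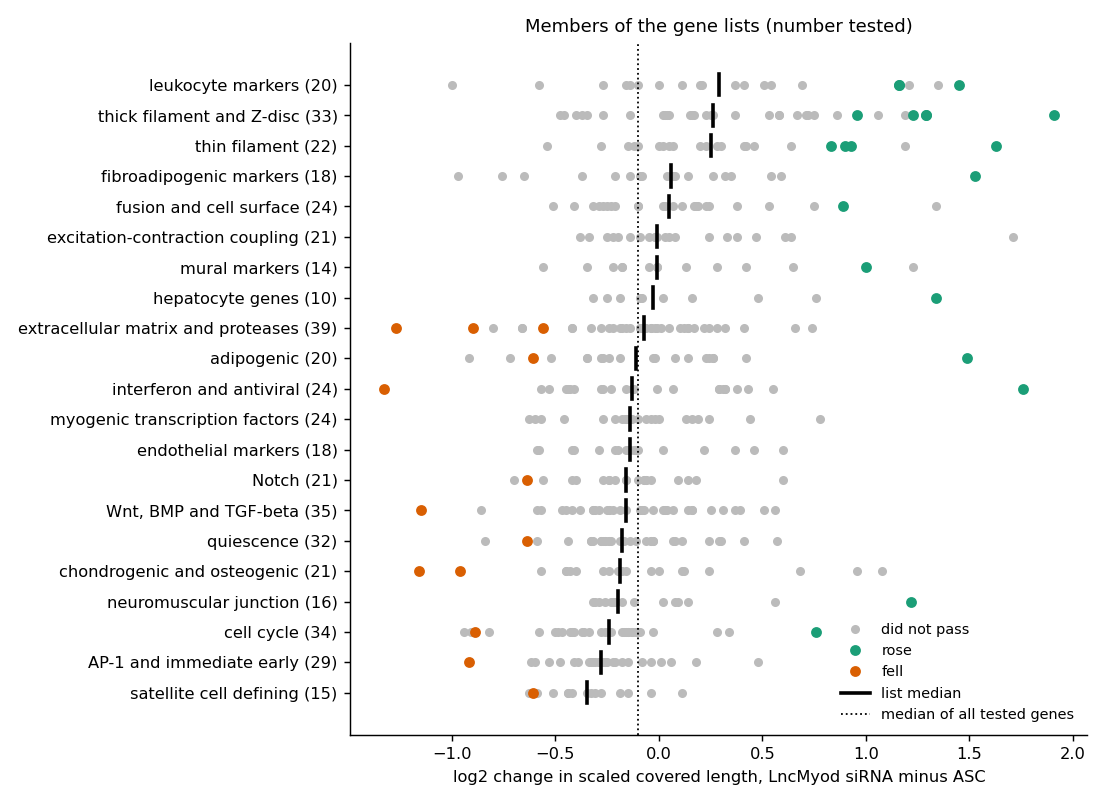
Log2 change in scaled covered length, LncMyod siRNA minus ASC (x axis), of every tested member of the gene lists other than glial markers, with the number tested in brackets, the list median as a black bar and the median of all loci, -0.10, as a dotted line. The thin filament list (median 0.25) and the thick filament and Z-disc list (0.26) stand among the 3 highest, after leukocyte markers (0.29).

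Signalling and matrix genes had few calls per list, where 2.91% of all loci rose and 2.32% fell. Of 35 Wnt, BMP and TGF-beta genes 1 fell, Bmp4, a BMP ligand, from 2.63 and 3.24 kb in ASC to 1.42 and 0.74 kb in LncMyod siRNA, and it was at 0.01 without weak peaks. Dll1 was also the 1 of 21 Notch genes to fall. Of 39 tested genes of the matrix and its proteases 3 (7.69%) fell and 0 rose: Ddr2, Col11a1, a fibrillar collagen chain, by 1.27 (SE 0.25), and Itga5, the fibronectin receptor subunit, by 0.56 (SE 0.11). Chondrogenic and osteogenic genes had 2 of 21 (9.52%) that fell, Sox5, a cartilage transcription factor, and Col2a1, the main collagen of cartilage. Sox5 had 22.4 and 17.9 kb in ASC, 11.3 and 11.4 kb in control siRNA, against 10.8 and 6.95 kb in LncMyod siRNA, a log2 change of -1.16 (SE 0.21). Among 20 adipogenic genes Lep, leptin, rose by 1.49 and Ebf1, an early adipocyte and B cell factor, fell by 0.61. Of 24 interferon genes tested (of 28 listed) Oas2, an oligoadenylate synthetase listed at 0 in ASC, rose to 0.91 and 1.54 kb. Gbp2 fell, but did not pass with its gene body only.

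A list of 15 genes that define satellite cells was looked at, and all were covered in every library of both groups. Such coverage cannot tell cell types apart and is no check of the label. Of the 14 mural markers, too, 0 were at 0 in both libraries of either group. Of the 15 satellite cell genes 1 fell (Sdc3, syndecan-3) and 0 rose, with a median of -0.35 and 1 of 15 above 0. Over all 27938 loci 2.32% fell and 2.91% rose, with a median of -0.10 and 11147 above 0. The summed covered length of the 15 was 81.2 ± 1.32 kb in ASC, 81.3 ± 1.54 kb in QSC, 68.8 ± 0.0959 kb in control siRNA, against 61.8 ± 3.25 kb in LncMyod siRNA (mean ± SD, n = 2). Sdc3 turned to 0.59 without weak peaks. Of 20 leukocyte markers tested 3 (15.0%) rose, against 2.91% of all loci: Itgam, an integrin of myeloid cells, and C1qb and C1qc, complement subunits whose loci share the same peaks. C1qa, whose locus overlaps both, did not pass. It had 1.022 and 1.335 kb in ASC and 1.595 and 0.832 kb in LncMyod siRNA, and the groups overlapped. C1qb was at 0 in ASC, with 1.01 kb in both control siRNA libraries, and LncMyod siRNA had 0.764 and 0.482 kb, while Ptprc, the pan-leukocyte gene, was at 0 in both LncMyod siRNA libraries. The leukocyte sum was 24.5 ± 0.598 kb in ASC and 31.0 ± 4.44 kb in LncMyod siRNA (mean ± SD, n = 2). Of the 22 markers 7 were at 0 in both ASC libraries and 2, Ptprc and Ly6g, in both LncMyod siRNA libraries. The part of other cells in the results was not tested.

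Markers of other cell types had 1 call at most per list, where 2.91% of all loci rose and 2.32% fell. Fibroadipogenic markers had 1 of 18, C3, complement component 3, which rose by 1.53 on weak peaks and was at -0.28 without them. Their summed covered length was 47.3 ± 5.9 kb in ASC and 47.5 ± 2.73 kb in LncMyod siRNA (mean ± SD, n = 2). Mural markers had 1 of 14, smooth muscle Myh11, endothelial markers 0 of 18, and hepatocyte genes 1 of 10. Alb, albumin, was listed at 0 in all 4 libraries. The median of 11 glial markers tested was -0.42.

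The direct contrast of LncMyod siRNA with control siRNA, both of cultured cells, gave few calls. Of the 27938 loci 6 (0.0215%) were higher in LncMyod siRNA and 0 (0%) lower (limma, adjusted p under 0.05, with 1580 higher and 1160 lower at an unadjusted p under 0.05). They were Dnah8 (log2 change 2.03, limma adjusted p 0.0218), Oas1f and 4 long noncoding RNA genes. Oas1f and 3 of those 4 were listed at 0 in both control siRNA libraries, and no fold is read from them. In each LncMyod siRNA library 20 of the 23 peaks at these 6 loci, 87.0%, had a fold under 3. With those peaks left out 0 loci were higher and 18 lower. Over the alternatives that included the control siRNA libraries the counts ran from 0 to 160 higher and from 0 to 40 lower. The fit on the 4 libraries had no control siRNA library and gave no such contrast. None of the 6 was called when the replicate number was a term, nor when any library of LncMyod siRNA or ASC was left out. At the contractile loci the median difference from control siRNA was -0.15, against -0.05 over all loci, and 0 of 55 passed.

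**Figure D5:**
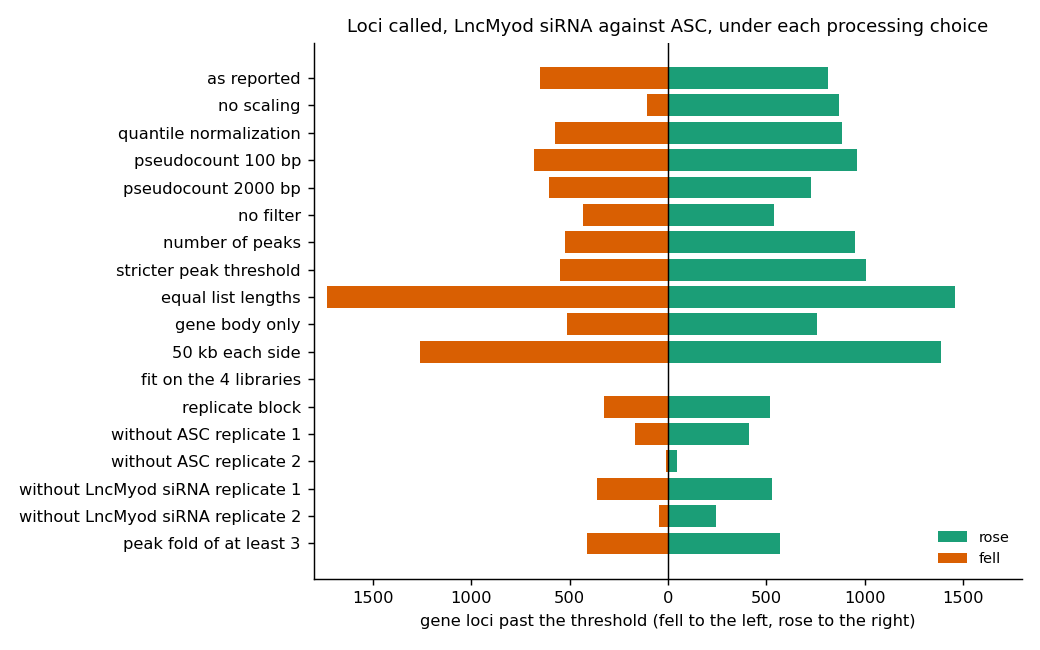
Number of gene loci (x axis) that rose (right) or fell (left) in LncMyod siRNA against ASC under the reported processing and 17 alternatives. The counts run from 0 and 0 for the fit on the 4 libraries to 1455 and 1732 for lists of equal length.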

How the data were processed

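The submitters' processing notes name MACS2 2.1.1, Bowtie2 2.3.2, bedtools 2.26.0, SAMtools 1.3, Picard 2.9.2, Trimmomatic 0.36 and bcl2fastq 2.19, with mm10 as the build. The labels leave the settings of each tool unstated, including any shift of read ends. The deposited lists give 1 row per broad peak, called on each library separately. Each peak has the authors' fold enrichment over local background and a deposited −log10 p with its −log10 q. The deposited score, a display value, was not used. These values only described, ranked or filtered peaks within a library.

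Overlapping or touching peaks were merged, on the 19 autosomes and the sex chromosomes. RefSeq (GRCm38.p6, from which mm10 is drawn) gave the bodies of 34328 genes, protein-coding or for long noncoding RNA. Testing needed 200 covered bp or more in 2 libraries. Covered length was multiplied by the mean total covered length over that of the library. limma 3.58.1 in R 4.3.3 used a trended prior and the contrasts LncMyod siRNA minus ASC and minus control siRNA. The procedure was tested on simulated data. Loci of neighbouring genes share peaks.

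Named genes were up to 12 protein-coding genes per direction in order of p, with groups that did not overlap and a mean of at least 1 kb, none on chromosome 18 and no overlapping loci. To these were added up to 4 members past the threshold per list and direction, the 2 members of a list with most specific regions, 20 fixed genes, and the 6 genes with most specific regions each way. Tcap and Tnnc1 were named after their values were seen. Of 515 list entries 513 matched. The members and lists were chosen with earlier results of these data known. The alternatives are in the closing section. A few named items are not reported here.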

Additional observations from a re-analysis of the deposited data

Results flagged for a closer look

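LncMyod siRNA and control siRNA differed in their change from ASC, by the direct contrast of the 2 cultures (limma, Benjamini-Hochberg adjusted p under 0.05), at 6 loci. The log2 differences, LncMyod siRNA minus control siRNA, were 2.67 for Gm40972, 2.74 for Gm14344, 2.44 for Gm14342, 2.27 for Oas1f, 2.03 for Dnah8 and 1.98 for Gm39714. Gm14344 and Gm14342 lie beside each other on chromosome 2 and share peaks. For Gm40972, Gm14344, Gm14342 and Oas1f both control siRNA libraries were listed at 0, so the fitted differences depend on the added 500 bp and are no measure of size. Gm40972 had 2.48 and 2.91 kb in LncMyod siRNA, Gm14344 2.45 and 3.30 kb, and Gm14342 1.99 and 2.46 kb, and all 3 were at 0 in ASC and QSC too. Gm39714 had 2.64 and 3.27 kb in LncMyod siRNA, 0.341 and 0.4 kb in control siRNA and 2.48 and 2.35 kb in ASC, so its difference came from low control siRNA libraries.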

How the results depend on the processing

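Region counts specific to LncMyod siRNA and to ASC (12767 and 2923) were 8276 and 1915 with a −log10 q of at least 5, 7096 and 6293 with lists of equal length, and 8149 and 2744 with a peak fold of at least 3, the setting added after the data were seen. With 1 library standing for a group they ranged from 14512 to 32188 and from 3413 to 9278. Loci that rose and fell (814 and 648) were 869 and 109 without scaling, 538 and 433 without the filter, 1455 and 1732 with equal lists, 1386 and 1260 with 50 kb flanks, 0 and 0 in the fit on the 4 libraries, and 568 and 413 with a peak fold of at least 3. With 1 library left out they ranged from 46 to 527 and from 9 to 361. The lone library of that group is then assumed to vary like the other groups. A replicate block gave 519 and 327. Replicate numbers carry no stated pairing, and the replicate differences correlated at 0.1 between ASC and LncMyod siRNA across loci.

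Of all named loci 2 were called against control siRNA, Dnah8 and Oas1f, both higher. With a pseudocount of 100 bp the count was 1 (Oas1f). It was also 1 with a −log10 q of at least 5 (Ly6f) and with a peak fold of at least 3 (Cd9), both lower and neither of the first pair. With equal lists, 50 kb flanks or the replicate block it was 0, and with a library of ASC or LncMyod siRNA left out it ranged from 0 to 0. No control siRNA or QSC library was left out. Among loci called with or without the change, the sign changed for Ccne1 (-0.01 for the gene body, -0.05 with 50 kb), Ccnd2 (0.13 by peak number), Sdc3 (0.11 at −log10 q of at least 5), C3 (-0.19 with equal lists) and Cnn1 (1.11 for the gene body). With a peak fold of at least 3 it changed for Acta1 (-0.06), Tnnt3 (-1.10), Bmp4 (0.01), Sdc3 (0.59), C3 (-0.28) and Ltbp1 (0.02). Loci not called either way also changed sign, among them Myog (-1.12, and -0.09 with equal lists), Myf5 (2.08, and 0.06 for the gene body) and Myf6 (1.06). The cause of each move was not tested. Depth is unknown, so weak and missing peaks cannot be told apart from shallow sequencing.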
